A study of Mus musculus with 38 samples.

Results

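Oligodendrocyte precursor cells (OPCs), the dividing glial cells that mature into myelinating oligodendrocytes, were compared between lights off (zeitgeber time 12, ZT12) and lights on (ZT0) in WT mice. The comparison took every library labelled as WT at those times, which gave 6 at ZT12 and 4 at ZT0, or 10 of the 38 libraries of the series. It covered all genes, of which 22798 of the 54532 in the deposited table had enough counts to be tested. Poly-A RNA was sequenced and reads were counted per gene.

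The WT animals were NG2:Cre-;Bmal1fl/fl mice at postnatal day 6 to 7, kept under 12 h of light and 12 h of dark. Both Bmal1 alleles were therefore floxed in the WT groups, and no Cre was present. The KO groups used for comparison were NG2:Cre+;Bmal1fl/fl mice of the same age, with 4 libraries at ZT12 and 4 at ZT0. In these the promoter of NG2 (Cspg4), a proteoglycan of OPCs and also of pericytes, drives Cre that removes the part of Bmal1 encoding its DNA-binding domain. OPCs were taken from the forebrain by immunopanning, using 2 plates that hold back microglia and endothelial cells and a final plate that captures cells carrying PDGFRA, the OPC growth factor receptor. Each library came from 2 pooled mice.

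The circadian clock is a transcriptional feedback loop. BMAL1 (gene Arntl) and CLOCK bind E-boxes and activate the Per and Cry genes, whose proteins then repress them, while the REV-ERB receptors (Nr1d1, Nr1d2) repress Arntl. Output factors such as DBP, and repressors such as CIART and BHLHE41, pass the rhythm to other genes. Mice are nocturnal, so lights off opens their active phase.

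The WT libraries did not form uniform groups. Ribosomal RNA genes held 0.0856 to 0.0909% of counts in WT ZT12 replicates 4, 5 and 6, and 0.719 to 1.02% in ZT12 replicates 1, 2 and 3, against 0.830 to 1.34% in WT ZT0. Totals were 21.4 to 38.1 M counts in WT ZT12 and 22.5 to 26.6 M in WT ZT0. The labels state that both sexes were pooled, but ZT12 replicates 1 to 4 and ZT0 replicate 1 held only female RNA by Xist and the Y-linked genes. Every ZT12 library was therefore low in ribosomal RNA, from females only, or both, so no ZT12 library was free of both features, and their part in the results was not tested beyond the subsets given. Between ZT12 replicates 4 to 6 and replicates 1 to 3, 10 genes (0.0439% of those tested) passed the threshold.

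Lights off and lights on differed significantly in 2 genes, Pdk2 and Snrpc, which is 0.00877% of the genes tested, and both rose at ZT12. The threshold was an adjusted p of 0.05, from quasi-likelihood tests in edgeR adjusted by Benjamini-Hochberg over all genes tested, and adjusted p below come from the same fit unless another tool is named. At an unadjusted p under 0.05, 1768 genes (7.76%) were higher and 1537 (6.74%) lower. All ZT12 libraries lay above all ZT0 libraries for 293 genes (1.29%) and below them for 384 (1.68%). These shares are the background for the counts of list members below. Genes short of the threshold were dense, with 59 under an adjusted p of 0.06 (33 higher, 26 lower) and 199 under 0.1.

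Pdk2 encodes a pyruvate dehydrogenase kinase, which slows the entry of pyruvate into the citric acid cycle. Levels are in CPM, counts per M of the scaled library size. Pdk2 had 34.4, 34.3 and 36.0 CPM in WT ZT12 replicates 1 to 3 and 38, 36.7 and 34.7 CPM in replicates 4 to 6, against 24.3, 26.3, 24.0 and 22.8 CPM in the WT ZT0 replicates. The groups did not overlap, and the low-rRNA libraries were not set apart from the other ZT12 libraries. The log2 fold change was 0.55 with a standard error (SE) of 0.10, a 1.47-fold difference (adjusted p = 0.0432). In KO cells Pdk2 averaged 23.9 ± 3.45 CPM at ZT12 and 28.1 ± 3.52 CPM at ZT0 (SD, n = 4 each), a log2 fold change of -0.23 that did not pass the threshold. The WT change exceeded the KO change by 0.78 on the log2 scale (SE 0.14, adjusted p = 0.00145). Over the WT day the mean was 24.3 CPM at ZT0, 27.7 at ZT6, 35.7 at ZT12 and 32.3 at ZT18.

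Snrpc encodes the C protein of the U1 small nuclear ribonucleoprotein, which recognises the start of introns. It had 45.6, 55.3 and 48.2 CPM in WT ZT12 replicates 1 to 3 and 62.3, 55.1 and 58.8 CPM in replicates 4 to 6, against 39.2, 37.4, 40.7 and 42.7 CPM in WT ZT0. No ZT12 library fell within the ZT0 range. The log2 fold change was 0.44 (SE 0.08), a 1.36-fold difference (adjusted p = 0.0432), and the WT change exceeded the KO change by 0.49 (SE 0.12, adjusted p = 0.00848). Without ZT12 replicates 4, 5 and 6 that excess was 0.37 and did not pass (adjusted p = 0.0959). Snrpc differed from ZT0 by 0.31 in ZT12 replicates 1 to 3 and by 0.55 in replicates 4 to 6, and the corresponding values for Pdk2 were 0.52 and 0.58.

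Both calls sat at the edge of the threshold. Without ZT12 replicates 4, 5 and 6 no gene passed, and 1222 genes had an unadjusted p under 0.05. Pdk2 and Snrpc then had log2 fold changes of 0.52 and 0.31, with adjusted p of 0.31 and 0.79. DESeq2 called 261 genes and limma-voom 208, with Pdk2 and Snrpc among the calls of each, and leaving out WT ZT0 replicate 4 gave 520.

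**Figure D1:**
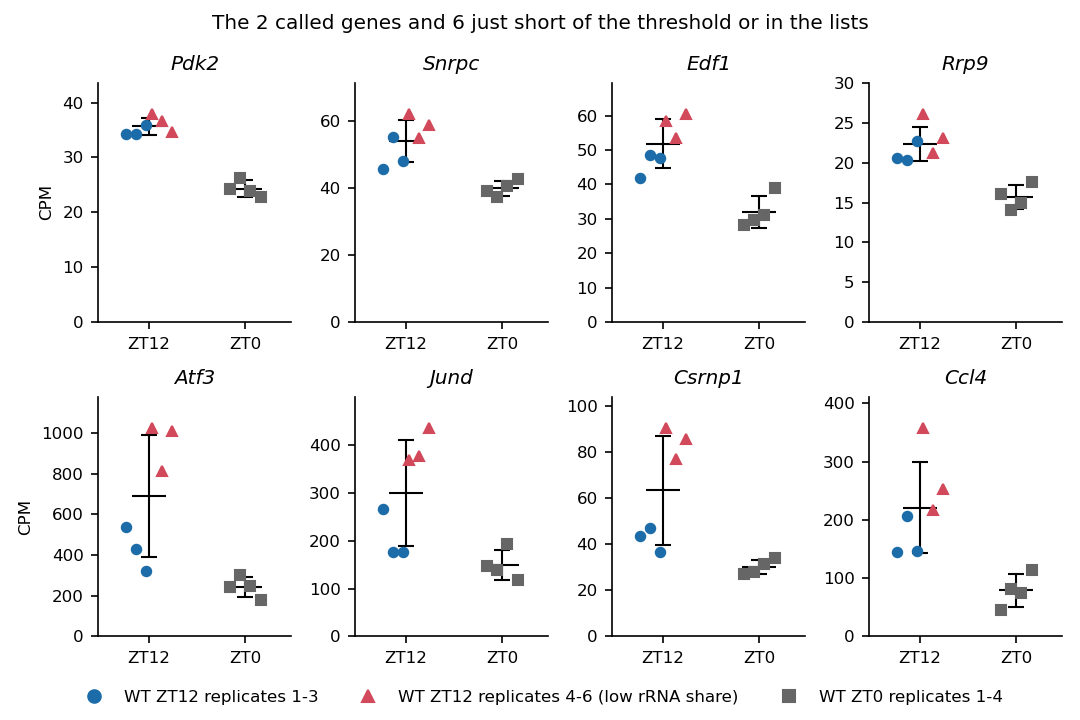
CPM of 8 genes in each WT library at ZT12 (left of each panel) and ZT0 (right), where horizontal bars are the mean and SD over 6 and 4 libraries, and triangles mark the low-rRNA ZT12 replicates 4 to 6. Pdk2 and Snrpc passed the threshold, the other genes did not, and for Atf3, Jund and Csrnp1 all triangles lie above all circles.

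The promoters of both called genes, and of 2 clock output genes whose groups did not overlap, are shown because the clock proteins act through short promoter motifs. Each sequence runs 5′ to 3′ on the gene's strand, from 250 bases before to 50 after a RefSeq start on GRCm38.p6: chr11:95041322-95041621 (minus strand) for Pdk2, chr17:27839837-27840136 (plus) for Snrpc, chr3:95882179-95882478 (minus) for Ciart and chr7:45704997-45705296 (plus) for Dbp. Capitals mark matches to the E-box CACGTG, D-box TTANGTAA, CRE TGACGTCA, AP-1 motif TGANTCA and GC box GGGCGG, searched on both strands.
Pdk2: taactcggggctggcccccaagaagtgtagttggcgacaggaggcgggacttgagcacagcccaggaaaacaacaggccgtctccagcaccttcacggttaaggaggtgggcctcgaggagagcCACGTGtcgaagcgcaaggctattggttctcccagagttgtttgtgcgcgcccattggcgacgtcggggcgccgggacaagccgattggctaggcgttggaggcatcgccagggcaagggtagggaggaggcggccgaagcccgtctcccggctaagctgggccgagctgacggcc
Snrpc: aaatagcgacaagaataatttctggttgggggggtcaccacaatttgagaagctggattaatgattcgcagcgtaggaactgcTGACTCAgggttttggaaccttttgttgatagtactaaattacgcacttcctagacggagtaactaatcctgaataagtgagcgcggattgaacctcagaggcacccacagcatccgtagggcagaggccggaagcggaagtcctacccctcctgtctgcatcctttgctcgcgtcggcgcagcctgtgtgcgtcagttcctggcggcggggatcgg
Ciart: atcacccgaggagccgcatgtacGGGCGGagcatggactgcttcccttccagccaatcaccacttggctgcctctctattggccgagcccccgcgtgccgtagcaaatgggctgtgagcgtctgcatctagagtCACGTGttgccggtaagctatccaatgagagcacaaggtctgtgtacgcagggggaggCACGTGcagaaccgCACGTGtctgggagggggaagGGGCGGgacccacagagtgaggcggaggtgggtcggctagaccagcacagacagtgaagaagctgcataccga
Dbp: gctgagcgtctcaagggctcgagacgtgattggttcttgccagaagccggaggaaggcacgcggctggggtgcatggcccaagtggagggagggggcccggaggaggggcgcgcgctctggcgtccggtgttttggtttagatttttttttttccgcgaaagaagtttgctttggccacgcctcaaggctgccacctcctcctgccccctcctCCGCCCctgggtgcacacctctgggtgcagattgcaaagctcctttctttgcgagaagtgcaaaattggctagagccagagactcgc
Pdk2 held 1 E-box, at -126 to -121 from its start, and Ciart held 3 E-boxes and 2 GC boxes. Snrpc held 1 AP-1 match, at -167 to -161, and Dbp held 1 GC box. Nr1d1 and Csnk1e, clock genes whose groups also did not overlap, are not shown, and the promoters searched for them held no E-box. Of 19 clock genes found in RefSeq, 5 held an E-box in any promoter. Of 32851 RefSeq promoters of this length, 7.15% held the E-box, 2.32% the D-box, 1.79% the CRE, 7.81% the AP-1 motif and 35.7% the GC box. These shares are of single promoters, whereas the clock count is of genes, some with several promoters, so they are not directly comparable. The Snrpc start used lies 1937 bases from the gene start in the deposited table, and Pdk2 has 2 RefSeq promoters, of which 1 is shown. A match describes these letters only and is not evidence of binding.

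None of the 24 core clock genes passed the threshold by edgeR, DESeq2 or limma-voom, 6 had an unadjusted p under 0.05, all higher at ZT12, and 4 (Ciart, Nr1d1, Dbp and Csnk1e) had every ZT12 library above every ZT0 library. Over all genes tested, 7.76% were higher at an unadjusted p under 0.05, and 1.29% had every ZT12 library above ZT0. Their median log2 fold change was 0.06, beside -0.01 over all genes tested. In the activating arm, Arntl had 19.5 to 26.2 CPM (median 22.9) in WT ZT12, against 33.2, 21.8, 19.4 and 22.1 CPM in WT ZT0. The ranges overlapped, and the log2 fold change was -0.08 (SE 0.12, adjusted p = 0.81). Clock had a log2 fold change of -0.21 (SE 0.12) and Npas2, which can replace CLOCK, -0.43 (SE 0.34). In KO cells Arntl averaged 22.0 ± 1.18 CPM at ZT12 and 20.8 ± 2.56 CPM at ZT0, but a count over the whole gene does not check a deletion of part of it.

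Among the repressors, Per1 had 92.6 to 161 CPM (median 110) in WT ZT12, against 124, 83.2, 69.0 and 75.7 CPM in WT ZT0, and replicate 4 at ZT12 and replicate 1 at ZT0 were the highest of their groups. Its log2 fold change was 0.40 (SE 0.27), while Per2 had -0.07 (SE 0.16), Per3 -0.27 (SE 0.16), Cry1 0.01 (SE 0.14) and Cry2 0.17 (SE 0.16). Nr1d1, which encodes REV-ERB alpha, had 22.6 to 35.1 CPM (median 24.7) in WT ZT12, against 17.1, 19.8, 16.2 and 22.4 CPM in WT ZT0. The 2 ranges were separated by under 1 CPM, and the log2 fold change of 0.49 (SE 0.24) had an adjusted p of 0.35. Its relative Nr1d2 had 0.01 (SE 0.14).

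Ciart, a repressor of CLOCK and BMAL1, had 12.5 to 39.1 CPM (median 15.8) in WT ZT12, against 10.9, 8.31, 8.58 and 10.3 CPM in WT ZT0. Its log2 fold change was the largest of the list at 1.11, with an SE of 0.41 (adjusted p = 0.20), and ZT12 replicates 2 and 4 were well above the others. Dbp, a PAR-family activator that binds D-boxes, had 16.8 to 19.3 CPM (median 18.5) in WT ZT12, against 12.9, 15.6, 16.1 and 13.5 CPM in WT ZT0, a log2 fold change of 0.33 (adjusted p = 0.33, SE 0.16). Nfil3, which competes with DBP for D-boxes, had 0.92 (SE 0.29), Bhlhe41 0.61 (SE 0.24), and Csnk1e, a kinase that marks PER proteins for degradation, 0.22 (SE 0.08), with adjusted p of 0.13, 0.23 and 0.20. Tef and Hlf, the relatives of Dbp, had 0.04 and 0.06.

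**Figure D2:**
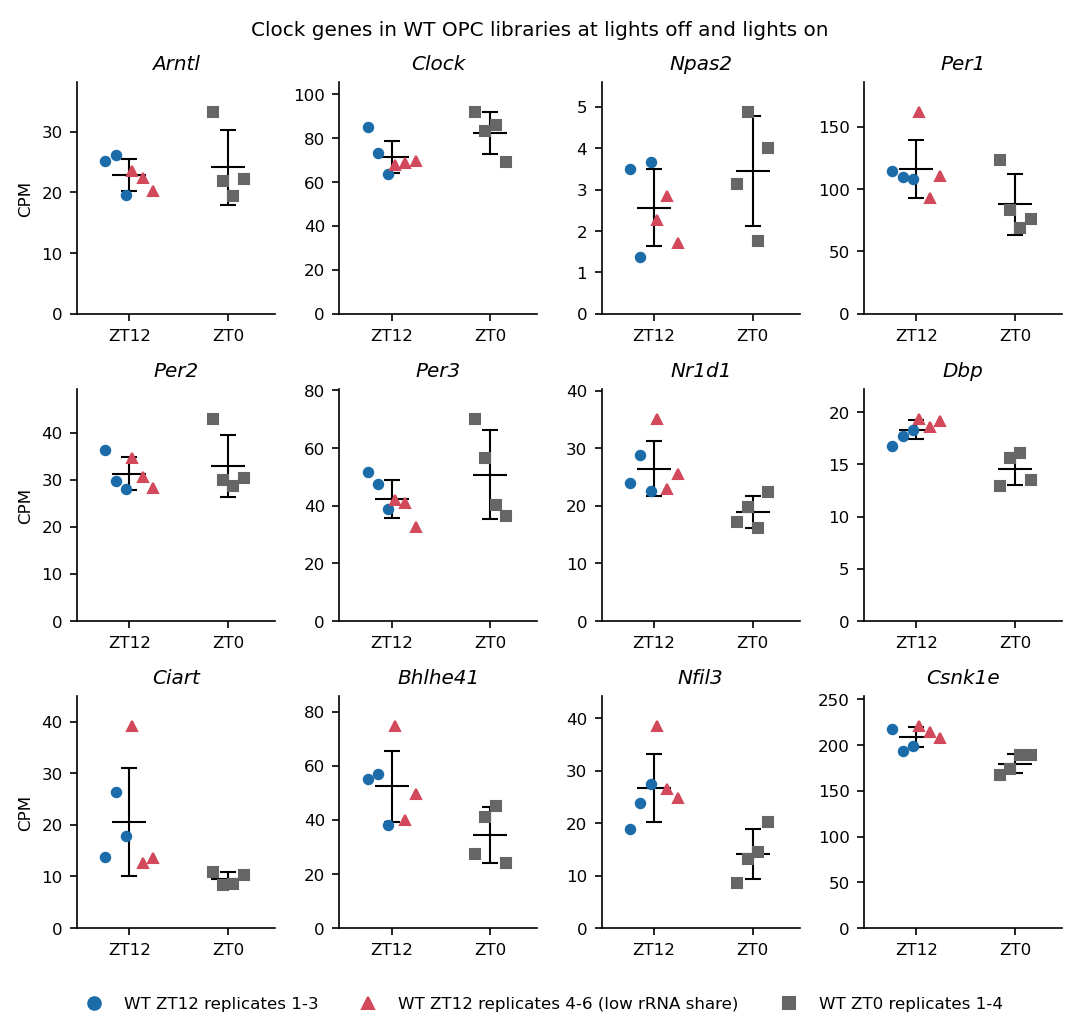
CPM of 12 clock genes in each WT library at ZT12 (left) and ZT0 (right), where horizontal bars are the mean and SD over 6 and 4 libraries, and triangles mark low-rRNA ZT12 replicates 4 to 6. Nr1d1, Dbp, Ciart and Csnk1e show no overlap between the times, and Arntl, Per2 and Per3 overlap.

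For most clock genes neither ZT12 nor ZT0 held the highest mean of the WT day, described here with no test. The highest mean was at ZT0 for 2 of the 24, at ZT6 for 16, at ZT12 for 4 and at ZT18 for 2. The 5 genes whose ZT6 mean most exceeded both the ZT12 and the ZT0 mean follow. Ciart averaged 9.52 CPM at ZT0, 64.4 at ZT6, 20.5 at ZT12 and 5.94 at ZT18. Per1 averaged 87.9, 252, 116 and 48.8 CPM at the same times, and Nr1d1 18.9, 52.8, 26.5 and 18.5 CPM. Bhlhe41 averaged 34.5, 97.1, 52.4 and 35.5 CPM and Nfil3 14.1, 47.9, 26.7 and 12.5 CPM. That the ZT6 mean of these 5 genes was above their ZT12 and ZT0 means was fixed by this choice. Of 16 BMAL1 output genes, none passed the threshold by edgeR, DESeq2 or limma-voom, 3 had an unadjusted p under 0.05 (Por, Klf10 and Tsc22d3, all higher), and the median was 0.12. Por, the electron donor of microsomal P450 enzymes, had a log2 fold change of 0.31 (SE 0.09).

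Over all 6 ZT12 libraries, the immediate early and NF-kB lists had the highest medians among the lists of cell function. In replicates 1 to 3 alone the NF-kB median was 0.18, below glucocorticoid response and cholesterol biosynthesis (0.26 each). Immediate early genes, the transcription factors and regulators induced within minutes of a stimulus, had a median log2 fold change of 0.79, with 31 of 32 members positive, 20 with an unadjusted p under 0.05 and none past the threshold by edgeR. DESeq2 called 6 members and limma-voom 3, of 261 and 208 genes called in all. At an unadjusted p under 0.05, 7.76% of all genes tested were higher by edgeR. Atf3, a stress-induced repressor, had 324 to 1023 CPM (median 676) in WT ZT12, against 244, 303, 245 and 178 CPM in WT ZT0, a log2 fold change of 1.51 (adjusted p = 0.0536, SE 0.32). Jund, an AP-1 subunit, averaged 300 ± 110 CPM in WT ZT12 (n = 6) and 149 ± 31.5 CPM in WT ZT0 (SD, n = 4), a log2 fold change of 1.01 (adjusted p = 0.0536, SE 0.21). Atf3 separated the groups and Jund did not. Fos, Jun and Egr1 had log2 fold changes of 0.51, 0.52 and 0.59, with unadjusted p of 0.0862, 0.0598 and 0.0524.

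The immediate early and NF-kB lists each summed higher in ZT12 replicates 4 to 6 than in replicates 1 to 3. In an edgeR fit that separated these classes, Atf3, Jund and Ccl4 did not pass between them (adjusted p = 0.22, 0.10 and 0.54). The immediate early genes summed to 7029 to 14925 CPM in ZT12 replicates 1 to 3 and 16924 to 21553 CPM in replicates 4 to 6, against 5268 to 11892 CPM in WT ZT0, so the low-rRNA libraries and replicate 1 lay above all ZT0 libraries and replicates 2 and 3 did not. The median log2 fold change from ZT0 was 0.32 for replicates 1 to 3 and 1.14 for replicates 4 to 6. In KO cells the list's median was 0.02, with 17 of 32 members positive. NF-kB and inflammation genes followed the same split, with a median of 0.64 over all ZT12 libraries and 1.00 in replicates 4 to 6. In this list Ccl4, a chemokine, had 145 to 357 CPM (median 212) in WT ZT12, against 45.9, 81.5, 73.9 and 114 CPM in WT ZT0, a separation with a log2 fold change of 1.49 (adjusted p = 0.0562, SE 0.34). Microglia also make such chemokines, and the 20 microglial markers, all detected, summed to 7297 to 13245 CPM in WT ZT12 and 6665 to 16688 CPM in WT ZT0. Their median log2 fold change was -0.01 and none had an unadjusted p under 0.05 by edgeR or an adjusted p under 0.05 by DESeq2 or limma-voom. The microglial median was -0.09 in ZT12 replicates 1 to 3, with 2 of 20 positive, and 0.10 in replicates 4 to 6, with 13 of 20 positive. Over the WT day, Atf3 averaged 243, 1508, 690 and 149 CPM at ZT0, ZT6, ZT12 and ZT18. Jund averaged 149, 291, 300 and 153 CPM at these times, and Ccl4 78.9, 389, 221 and 51.1 CPM. No WT ZT6 library was low in ribosomal RNA. The part of ribosomal RNA share and microglial RNA in these differences was not tested.

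Glucocorticoid response genes, which in adult nocturnal rodents follow the daily corticosterone rise before dark, had a median of 0.38 with 21 of 23 tested members positive, 8 with an unadjusted p under 0.05, none past the threshold by edgeR and 1 by DESeq2. The 8 were all higher, beside 7.76% of all genes tested. They include Dusp1, also in the immediate early list, and Tsc22d3, also in the BMAL1 output list. Dusp1 differed from ZT0 by 0.26 in ZT12 replicates 1 to 3 and by 1.25 in replicates 4 to 6. Fkbp5, another member, had 0.08 over all ZT12 libraries. Sgk1, a kinase induced by glucocorticoids, had 227 to 515 CPM (median 382) in WT ZT12, against 138, 272, 306 and 176 CPM in WT ZT0, and the ranges overlapped. Heat shock chaperones had a median of 0.19, with 7 of 22 members higher and 1 lower at an unadjusted p under 0.05, beside 7.76% and 6.74% of all genes tested. Genes of the integrated stress and unfolded protein responses had a median of 0.18, but -0.01 in ZT12 replicates 1 to 3 and 0.36 in replicates 4 to 6.

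Cell division genes showed small differences. Of 26 genes of mitosis and G2/M, 22 had negative log2 fold changes, with a median of -0.17, 7 with an unadjusted p under 0.05, and 2 (Cenpf and Prc1) below all ZT0 libraries. Over all genes tested, 6.74% were lower at an unadjusted p under 0.05, and 1.68% lay below all ZT0 libraries. The median was -0.23 in ZT12 replicates 1 to 3 and -0.09 in replicates 4 to 6. Cenpf, a kinetochore protein, had 74.5 to 92.2 CPM (median 83.3) in WT ZT12, against 106, 94.1, 105 and 109 CPM in WT ZT0, a log2 fold change of -0.30 (adjusted p = 0.18, SE 0.11). Mki67, the proliferation antigen, had -0.24 (unadjusted p = 0.0555). Genes of DNA replication and G1/S had a median of 0.07, with -0.10 in ZT12 replicates 1 to 3 and 0.19 in replicates 4 to 6. In these bulk libraries, fewer cells of a type and less RNA per cell cannot be told apart.

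All 20 OPC markers were detected in both groups, and none differed significantly by edgeR, DESeq2 or limma-voom. Pdgfra averaged 4086 CPM in WT ZT12 and 4080 CPM in WT ZT0, a log2 fold change of 0.00. The list's median was 0.19, with 17 of 20 members positive, 6 with an unadjusted p under 0.05 and 1 (Vcan) with every ZT12 library below ZT0, and the median was 0.10 in ZT12 replicates 1 to 3 and 0.29 in replicates 4 to 6. The 6 were all higher, beside 7.76% of all genes tested, and 1.68% of all genes tested lay below ZT0. Olig2, the lineage transcription factor, averaged 786 CPM in WT ZT12 and 602 CPM in WT ZT0 (log2 fold change 0.39, SE 0.14, adjusted p = 0.19). Differentiation and myelin genes had a median of 0.05, which turned to -0.01 under RLE size factors, library size alone or DESeq2. Mbp, the major myelin protein, had 0.23 with an adjusted p of 0.66.

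Lists of energy metabolism, lipid synthesis and RNA processing differed in sign. Of 28 nuclear genes of oxidative phosphorylation, 25 were positive, with a median of 0.21, 10 with an unadjusted p under 0.05 and 5 (Atp5k, Ndufa1, Ndufa2, Ndufb3 and Uqcrh) above all ZT0 libraries. The 10 were all higher, beside 7.76% of all genes tested, of which 1.29% lay above all ZT0 libraries. Atp5k, a subunit of ATP synthase, had 10.3 to 14.5 CPM (median 11) in WT ZT12, against 5.80, 3.38, 4.11 and 8.54 CPM in WT ZT0 (log2 fold change 1.10, SE 0.28, adjusted p = 0.0807). Of 24 genes of cholesterol biosynthesis, 23 were positive with a median of 0.19, which was -0.04 without the single-sex libraries. That subset kept only ZT12 replicates 5 and 6, both low in ribosomal RNA, and ZT0 replicates 2 to 4. The list summed to 3416 CPM in ZT0 replicate 4 and 1989 to 2188 CPM in ZT0 replicates 1 to 3. Mvd, a mevalonate pathway enzyme, had 0.47 (SE 0.19, adjusted p = 0.23). Mitochondrially encoded genes had a median of -0.19, from 12 tested members of which 9 were negative, with -0.05 in ZT12 replicates 1 to 3 and -0.38 in the low-rRNA replicates 4 to 6. Spliceosome genes, which include Snrpc, had a median of 0.16 and 21 of 24 positive, with 0.05 in replicates 1 to 3 and 0.21 in replicates 4 to 6. Nuclear-retained long noncoding RNAs had a median of -0.36 with all 8 tested members negative, but -0.09 in replicates 1 to 3 and -0.64 in replicates 4 to 6. Malat1, an abundant RNA of nuclear speckles, had 2836, 2535 and 2266 CPM in WT ZT12 replicates 1 to 3 and 1248, 1191 and 902 CPM in replicates 4 to 6, against 5710, 3484, 2992 and 2237 CPM in WT ZT0. All of the low-rRNA libraries lay below the ZT0 range and the other ZT12 libraries within it.

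**Figure D3:**
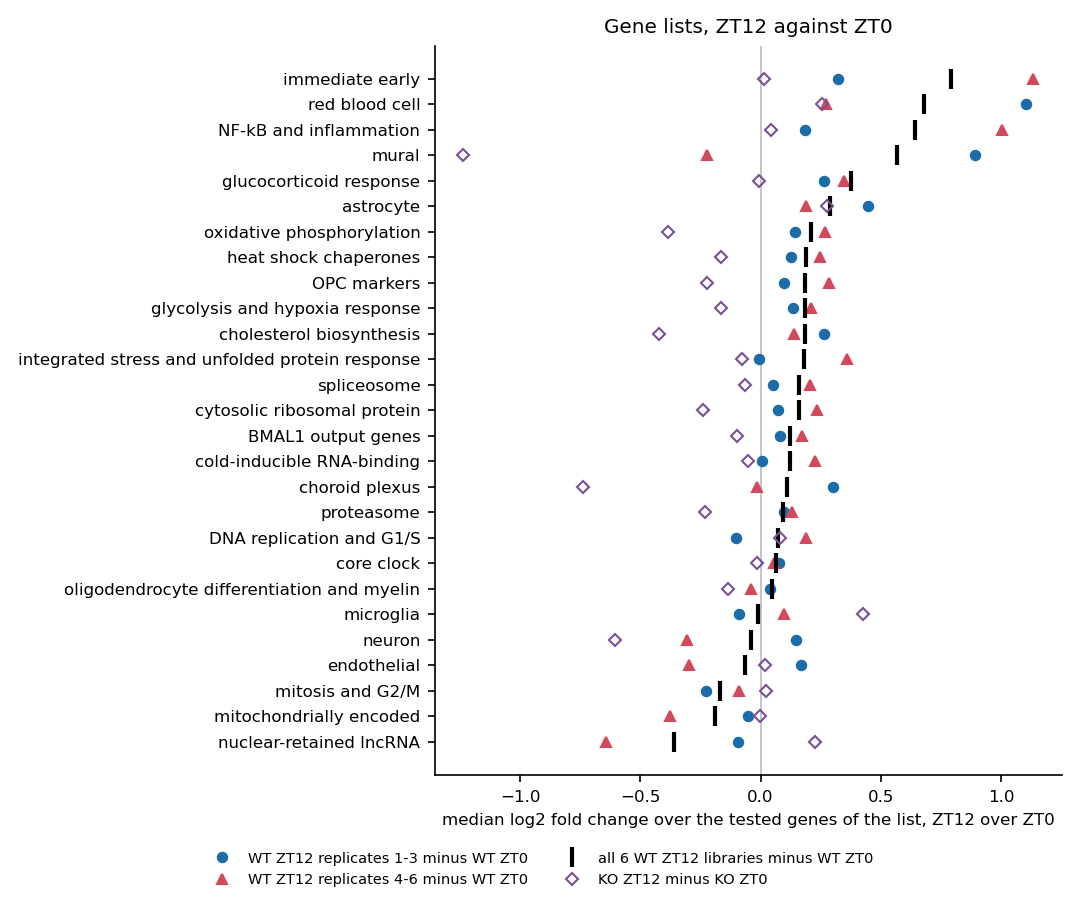
Median log2 fold change of ZT12 over ZT0 for 27 gene lists, for all 6 WT ZT12 libraries (black bars), for WT ZT12 replicates 1 to 3 (circles) and 4 to 6 (triangles) against the same WT ZT0 libraries, and for KO cells (open diamonds). Immediate early genes stand at 0.79 in WT and 0.02 in KO cells, with triangles well to the right of circles, and oxidative phosphorylation at 0.21 in WT and -0.38 in KO cells.

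The lights-off difference depended on genotype far more often than it passed the threshold in WT cells. The test of the WT change minus the KO change called 1963 genes, 1342 (5.89%) higher in WT and 621 (2.72%) lower. WT and KO changes had opposite signs in 1955 of these, but selecting genes by the difference between the changes favours opposite signs. KO cells alone had 187 genes (0.82%) higher and 558 (2.45%) lower at ZT12, and 657 of these 745 were also called by the difference. The difference uses the same KO libraries, so this overlap is not independent. None of the 745 had a WT difference of the same sign at an unadjusted p under 0.05. Marker lists of other cell types had KO medians of -1.24 (mural), -0.74 (choroid plexus), -0.60 (neuron) and 0.42 (microglia). Astrocyte markers had 0.28, red blood cell genes 0.25 and endothelial markers 0.02 in KO cells. By the genotype difference, 2 of 12 mural and 1 of 18 astrocyte markers passed, and no marker of the other lists. The part of cell composition in the genotype difference was not tested.

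Among the genes with the smallest p for this difference was Atp5k, with a log2 change of 1.10 in WT and -1.74 in KO cells. Atp5k averaged 11.7 ± 1.67 CPM in WT ZT12 (n = 6) and 5.46 ± 2.29 CPM in WT ZT0 (n = 4), against 4.07 ± 2.35 CPM in KO ZT12 and 13.7 ± 5.16 CPM in KO ZT0 (SD, n = 4 each). Edf1, a transcriptional coactivator, differed by 1.31 (SE 0.20, adjusted p = 0.000606), with 0.70 in WT and -0.62 in KO cells. The other 3 genes named here by their p were Pcsk1n (1.57), Bex3 (1.70) and Basp1 (1.11).

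Of the clock genes, Dbp differed by 1.07 (SE 0.24, adjusted p = 0.00542). It averaged 18.3 ± 0.929 CPM in WT ZT12 and 14.6 ± 1.56 CPM in WT ZT0, against 8.78 ± 2.45 CPM in KO ZT12 and 14.7 ± 4.28 CPM in KO ZT0, so the lowest mean was that of KO cells at ZT12. Csnk1e differed by 0.39 (adjusted p = 0.0344), Clock by -0.62 (0.0263) and Per3 by -0.74 (0.0415), and 20 of 24 clock genes did not pass. Passing members numbered 13 of 28 for oxidative phosphorylation, 8 of 24 for cholesterol biosynthesis, 8 of 24 for the spliceosome, 7 of 24 for the proteasome, 7 of 32 for immediate early genes and 6 of 20 for OPC markers, all higher in WT. Over all genes tested, 5.89% passed higher in WT and 2.72% lower. BMAL1 output genes had 1 of 16 passing, and NF-kB and inflammation genes 2 of 24. Sox10, a lineage factor, was among the OPC markers (0.70, adjusted p = 0.0156). Without ZT12 replicates 4, 5 and 6 the test called 451 genes, and Dbp differed by 1.01 (adjusted p = 0.0441). Csnk1e, Clock, Per3 and Sox10 did not pass in that setting, with adjusted p of 0.15, 0.12, 0.18 and 0.11.

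The genes higher and lower differed in median GC content in both contrasts, and in median length in the genotype difference. Genes called higher in WT by the genotype difference had a median GC content of 55.4%, and those called lower 43.9%, beside 48.8% over all genes tested. Their median lengths were 2870.5 and 7017 bases, beside 3220 over all genes tested. Genes higher and lower in WT ZT12 at an unadjusted p under 0.05 had median GC contents of 54.5% and 43.6%, and median lengths of 2998.5 and 3025 bases. Within each library, the mean level of the GC-richest quintile of genes minus that of the GC-poorest quintile was 0.0131 to 0.331 on the log2 scale in WT ZT12, against -0.209 to -0.0941 in WT ZT0, with no overlap. In KO cells the order was the reverse, at -0.589 to -0.159 in KO ZT12 and -0.162 to 0.109 in KO ZT0, ranges that barely overlapped. The WT ZT12 replicates 4 to 6 held the highest values, 0.235 to 0.331, and replicates 1 to 3 held 0.0131 to 0.0463. A length gradient was also present in both genotypes. The longest quintile minus the shortest was -0.142 to 0.0669 in WT ZT12 and 0.0588 to 0.324 in WT ZT0, ranges that barely overlapped. It was 0.104 to 0.311 in KO ZT12 and -0.310 to 0.111 in KO ZT0. With a correction for GC content and length in each library, chosen after seeing the data, 656 genes depended on genotype, 402 higher and 254 lower, and no gene passed in WT cells, where 2453 had an unadjusted p under 0.05. Dbp then differed by 0.48 (adjusted p = 0.21), Csnk1e by 0.19 (0.32), Clock by -0.25 (0.29), Per3 by -0.71 (0.0625), Sox10 by 0.09 (0.80) and Atp5k by 2.45 (adjusted p = 0.00108). The part of the GC gradient in the genotype dependence was not tested beyond this correction.

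**Figure D4:**
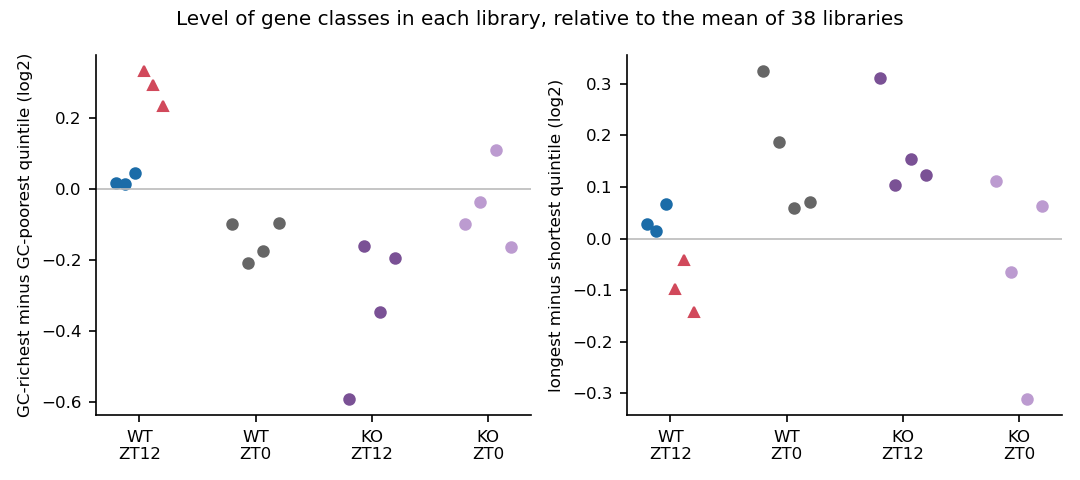
Mean log2 level of the GC-richest minus the GC-poorest quintile of genes (left) and of the longest minus the shortest quintile (right) in each library, relative to the mean of 38 libraries, where each point is a library and triangles are the low-rRNA WT ZT12 replicates 4 to 6. In the left panel all 6 WT ZT12 libraries lie above all 4 WT ZT0 libraries, whereas KO ZT12 libraries lie below 3 of the 4 KO ZT0 libraries.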

How the data were processed

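RNA-seq counts of 10 WT OPC libraries were analysed within the series' 38. Per the submitters' processing notes, fastp, HISAT2 2.0.5 and featureCounts 1.5.0-p3 were used on GRCm38 (mm10), while the annotation release and strand setting were not given in the sources used here. The authors deposited raw counts per gene, with symbols and coordinates; near-identical and antisense genes may share reads. Groups came from sample titles. Replicates are separate pools of 2 mice.

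Genes passing filterByExpr of edgeR 4.0.16 (R 4.3.3) were kept, 22798 holding 99.95% of counts. TMM scaling and 1 quasi-likelihood model of 8 groups over 38 libraries (30 residual degrees of freedom) gave ZT12 minus ZT0 in WT cells and the WT minus KO difference of that change. Benjamini-Hochberg adjustment ran over all genes tested, with calls at 0.05. DESeq2 1.42.0, limma-voom 3.58.1, other scalings, filters and subsets were alternatives. Intervals and SE reflect the spread between these pools. Low-rRNA libraries are those under 0.3% of counts in ribosomal RNA genes.

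The members and 28 gene lists were chosen with earlier results of these data known. Named genes were all clock genes, all called genes, up to 3 members of each list by p, and the 5 smallest p of the genotype difference, skipping unnamed models, pseudogenes and sex-linked genes; other genes were chosen after their values were seen. The values of 1 gene are not reported here. Same-numbered libraries did not vary together, so the numbers were not treated as pairs. No 2 replicates matched within sampling noise (smallest chi-square per degree of freedom 17.0). GC content came from GENCODE M21 transcripts for 22780 of the genes. Promoters came from RefSeq (GRCm38.p6). On simulated counts over 22798 genes, the WT contrast recovered 78% of 100 genes changed by 1 on the log2 scale and 99% of 100 changed by 2. For the genotype difference these shares were 60% and 96%. False calls numbered 6 for the WT contrast and 10 for the genotype difference. The simulated libraries were independent and had no rRNA class, sex difference or GC gradient, so these shares do not give the power in the real libraries.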

Additional observations from a re-analysis of the deposited data

Results flagged for a closer look

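Single libraries stood apart from the rest of their group in 8 of 208 gene and group combinations (104 genes in 2 groups), where chance alone would give about 1 in 20. At WT ZT12, these were Vtn in replicate 5 (206 CPM) and Cdh5 in replicate 5 (20.6 CPM), markers of mural and endothelial cells, Per1 in replicate 4 (161 CPM) and Tef in replicate 1 (157 CPM). At WT ZT0, these were Tnf in replicate 1 (25.0 CPM), Bex3 in replicate 4 (81.1 CPM), Sf3b2 in replicate 4 (256 CPM) and Per2 in replicate 1 (42.9 CPM).

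The ZT12 minus ZT0 change differed between WT and KO cells in 39 of the genes named by the rule, 35 higher and 4 lower in WT, given here as WT minus KO on the log2 scale. Of these, 16 also passed without WT ZT12 replicates 4, 5 and 6, 12 after the GC and length correction and 10 in both, which were Pdk2, Edf1, Pcsk1n, Atp5k, Ndufa1, Bex3, Rpl13, Basp1, Ahsa1 and Psmc1. Snrpc and Ndufb3 passed after the correction and not without those replicates, while Jund, C1ql1, Sirt2, Atp1b2, Mvd and Dbp did the opposite. No clock, clock output, oligodendrocyte lineage or astrocyte gene given here passed after the correction. Clock and clock output genes were Dbp (1.07), Csnk1e (0.39), Clock (-0.62), Per3 (-0.74) and Por (0.50). Called genes of the WT comparison and other genes named by p were Pdk2 (0.78), Snrpc (0.49), Edf1 (1.31), Pcsk1n (1.57), Bex3 (1.70) and Basp1 (1.11). Energy and lipid metabolism genes were Atp5k (2.84), Ndufa1 (1.33), Ndufb3 (0.97), mt-Nd6 (-0.52), Mvd (1.38), Pmvk (0.90) and Pkm (0.42). Genes of activity, inflammation and stress were Jund (1.71), Arl4d (1.66), Ccl4 (1.60), Ccl3 (1.29), Atf4 (0.95), Fkbp4 (0.72) and Ahsa1 (0.61). Genes of the oligodendrocyte lineage and of astrocytes were C1ql1 (1.38), Sox10 (0.70), Sirt2 (0.65), Cnp (0.60) and Atp1b2 (0.54). Genes of splicing, proteasome, ribosome and cell division were Snrpa (0.53), Sf3b2 (0.56), Psmc4 (0.57), Psmc1 (0.77), Psmb6 (0.55), Rpl13 (1.03), Rpl10a (0.52), Fen1 (1.87) and Cenpe (-0.46).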

How the results depend on the processing

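The number of genes called between WT ZT12 and WT ZT0 (2) changed with most settings, and the causes were not tested. It was 0 with RLE size factors, with library size alone, with the compared groups only, without ZT12 replicates 4, 5 and 6, without all low-rRNA libraries, with rRNA class as a term, and with the GC and length correction, where 1076 to 3239 genes had an unadjusted p under 0.05 by edgeR. It was 59 with no filter on low counts, 261 with DESeq2 (104 higher, 157 lower), 208 with limma-voom (71 higher, 137 lower), 108 without single-sex libraries, 19 with the replicate block and 1044 without ZT12 replicates 1, 2 and 3 (584 higher, 460 lower). Without single-sex libraries, WT ZT12 kept only the low-rRNA replicates 5 and 6. Leaving out each library gave 0 to 520 calls, with 0 without ZT0 replicate 2 or 3 or ZT12 replicate 4, 5 or 6, and 91, 74 and 116 without ZT12 replicates 1, 2 and 3. Pdk2 was called in 9 of 23 settings, with log2 fold changes of 0.36 to 0.59, and Snrpc in 10 of 23, with 0.31 to 0.55.

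Genes that depended on genotype (1963) numbered 758 with the compared groups only, 451 without ZT12 replicates 4, 5 and 6, 182 without all low-rRNA libraries, 843 with rRNA class as a term, 774 without single-sex libraries and 656 with the GC and length correction. Leaving out each library gave 849 (KO ZT0 replicate 3) to 3185 (WT ZT0 replicate 4), with 1188 without WT ZT0 replicate 2 and 1274 without KO ZT12 replicate 1. The share higher in WT was 68.4%, and it was 55.5% with RLE, 53.1% with library size alone and 52.3% with DESeq2. The replicate block gave 1822. Of 4 same-numbered pairs of WT libraries, 1 correlated above 0.1 (range -0.42 to 0.25), so the numbers do not pair the samples. The settings without ZT12 replicates 1, 2 and 3 and with the GC and length correction were chosen after seeing the data. No called value changed sign in any setting run.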

Other observations

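Red blood cell genes were higher in sum in every WT ZT12 library, at 2913 to 5526 CPM, than in any WT ZT0 library, at 1512 to 2742 CPM. All 7 tested members had positive log2 fold changes, with a median of 0.68, and none passed the threshold by edgeR, DESeq2 or limma-voom, while 3 had an unadjusted p under 0.05. Hba-a1, an alpha globin, averaged 1864 CPM in WT ZT12 and 1033 CPM in WT ZT0, and globin genes have near-identical copies that can share reads. The median was 1.10 in replicates 1 to 3 and 0.27 in replicates 4 to 6.

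Mural cell markers had a median of 0.57 over all WT ZT12 libraries, 0.89 in replicates 1 to 3 and -0.22 in replicates 4 to 6, and astrocyte markers had 0.29, with 17 of 18 positive. Endothelial markers had a median of -0.06, neuronal markers -0.04 and choroid plexus markers 0.11. Cytosolic ribosomal protein genes had 0.16 in WT and -0.24 in KO cells, proteasome genes 0.09 and -0.23, and glycolysis and hypoxia genes 0.19 and -0.16. Cold-inducible Cirbp and Rbm3, which in other tissues follow body temperature, had 0.14 and 0.11, with adjusted p of 0.50 and 0.62.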
